A study of Mus musculus with 12 samples.

Results

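Gene deserts are long stretches of a chromosome with no protein-coding gene, and the open chromatin described here lay inside them. A member was a region of open chromatin on chromosomes 1 to 19 or X that lay more than 100 kb from both ends of every protein-coding gene, outside the body of every annotated gene of any type, and that had a peak summit in at least 2 of the 8 libraries of days 3 and 5. Summits of the 8 libraries were first joined into 1 region wherever neighbours lay within 250 bp. Of 103094 regions, 67666 had a summit in at least 2 libraries, and 8552 of these (12.6%) were members. Another 5158 desert regions had a summit in 1 library and were not members. No measured signal beyond the presence of a summit in 2 libraries entered the choice.

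The study used ATAC-seq, in which the Tn5 transposase cuts and tags open chromatin, on mouse embryoid bodies, the floating aggregates in which embryonic stem cells differentiate. It compared cells without Foxk1, a forkhead transcription factor, with cells of the iHA-Foxk1 line. Each of the 4 groups used for the members (Foxk1 KO at day 3, Foxk1 KO at day 5, iHA-Foxk1 at day 3 and iHA-Foxk1 at day 5, all grown in mesodermal medium and all marked as without doxycycline) had 2 libraries. All lines had been kept on irradiated fibroblast feeders that a plating step removed before differentiation, and the same number of cells went into each reaction. The iHA-Foxk1 libraries are called the controls here. The labels do not say which part of Foxk1 was deleted, how many clones were used, or whether replicate libraries stem from separate differentiations. Every p therefore only places a difference among the possible arrangements of the labels of these libraries. Replicates may differ for technical reasons alone.

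Open chromatin far from any promoter is known mostly as enhancers, stretches of DNA that bind transcription factors and act on a gene over long distances through looping of the chromosome. Deserts beside developmental regulators such as Sox2, Myc, Sox9 and Bmp2 are known to hold such elements, whereas other deserts are poor in conserved sequence. As mesoderm forms, enhancers of the pluripotent state are known to close while enhancers of mesoderm and of the early heart open.

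Sequence is shown for members that overlapped the promoter window of an annotated gene. Of 32619 RefSeq promoter windows of 300 bases on GRCm38.p6, the assembly of mm10, 36 were overlapped by 35 members (0.409% of the members). The 7 windows printed here, each read 5′ to 3′ on the strand of its gene, show 1 example of the main patterns of presence over libraries that the results turn on. All 7 genes are long non-coding RNAs, and capitals mark the bases between the outermost summits of the member. Gm31851 (chr2:133429809-133430108, minus strand) lies in the desert between Fermt1 and Bmp2, and its member had summits in both day 5 control libraries, in neither KO library of that day, and in 1 day 3 control library.
Gm31851: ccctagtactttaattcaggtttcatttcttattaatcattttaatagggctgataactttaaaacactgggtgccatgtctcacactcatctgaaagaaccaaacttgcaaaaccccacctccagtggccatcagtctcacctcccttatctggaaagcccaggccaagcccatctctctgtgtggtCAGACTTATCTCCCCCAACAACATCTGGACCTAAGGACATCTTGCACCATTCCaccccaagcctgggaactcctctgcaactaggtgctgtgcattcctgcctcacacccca
Gm35255 (chr3:34949977-34950276, plus strand) lies in the desert between Sox2 and Atp11b, and its member was seen at day 3 only, in both KO libraries and 1 control library.
Gm35255: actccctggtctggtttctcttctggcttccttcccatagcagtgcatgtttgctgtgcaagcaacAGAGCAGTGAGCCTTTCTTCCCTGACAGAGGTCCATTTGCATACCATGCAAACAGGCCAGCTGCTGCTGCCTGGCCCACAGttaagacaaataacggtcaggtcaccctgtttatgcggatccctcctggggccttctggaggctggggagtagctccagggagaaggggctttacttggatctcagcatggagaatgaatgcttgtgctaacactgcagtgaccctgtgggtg
Gm12022 (chr11:18493217-18493516, minus strand) lies in the desert beside Meis1, a homeodomain regulator of blood and heart development, and its member was in all 4 KO libraries and no control library.
Gm12022: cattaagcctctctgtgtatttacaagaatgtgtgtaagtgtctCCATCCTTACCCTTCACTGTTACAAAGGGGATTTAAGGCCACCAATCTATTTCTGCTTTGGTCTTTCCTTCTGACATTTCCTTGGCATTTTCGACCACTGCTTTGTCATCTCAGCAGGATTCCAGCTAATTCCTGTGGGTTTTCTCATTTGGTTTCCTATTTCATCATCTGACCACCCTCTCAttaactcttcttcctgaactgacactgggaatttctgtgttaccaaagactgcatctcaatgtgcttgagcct
Gm39613 (chr11:24951310-24951609, plus strand) lies in the desert beside Bcl11a, a zinc-finger repressor of blood and neural cells, and its member was in all 4 day 3 libraries and in no day 5 library.
Gm39613: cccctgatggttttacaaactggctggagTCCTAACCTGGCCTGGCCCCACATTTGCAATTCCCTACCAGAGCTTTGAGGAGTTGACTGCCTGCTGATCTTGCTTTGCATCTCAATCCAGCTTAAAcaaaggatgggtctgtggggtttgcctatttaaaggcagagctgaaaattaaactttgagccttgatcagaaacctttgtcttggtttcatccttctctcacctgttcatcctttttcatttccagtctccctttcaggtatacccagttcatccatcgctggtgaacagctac
Mir99ahg (chr16:77329078-77329377, plus strand) is a microRNA host transcript between Usp25 and Cxadr, and its member was KO-only at day 5, seen in 2 KO libraries and no control library of that day.
Mir99ahg: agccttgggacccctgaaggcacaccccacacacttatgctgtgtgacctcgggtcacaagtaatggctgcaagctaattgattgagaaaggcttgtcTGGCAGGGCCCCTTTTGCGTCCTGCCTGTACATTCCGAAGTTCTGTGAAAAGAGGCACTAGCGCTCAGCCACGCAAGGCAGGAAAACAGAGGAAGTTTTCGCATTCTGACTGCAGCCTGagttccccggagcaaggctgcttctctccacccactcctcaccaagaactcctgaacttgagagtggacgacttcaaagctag
Firre (chrX:50635272-50635571, minus strand) is an X-linked nuclear RNA known for its role in chromosome organisation, and its member was in 7 libraries, missing from control day 5 replicate 1.
Firre: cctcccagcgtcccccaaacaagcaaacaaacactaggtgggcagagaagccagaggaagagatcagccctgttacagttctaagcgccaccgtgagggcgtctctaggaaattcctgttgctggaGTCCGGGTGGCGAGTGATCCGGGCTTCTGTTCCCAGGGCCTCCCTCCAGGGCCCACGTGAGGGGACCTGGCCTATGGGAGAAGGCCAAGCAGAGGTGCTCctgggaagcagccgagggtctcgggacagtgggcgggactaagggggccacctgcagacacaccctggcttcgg
Gm5091 (chr17:15240734-15241033, minus strand) lies in the desert beside Dll1, a Notch ligand of the early mesoderm, and its member was KO-only at day 3 by the same rule.
Gm5091: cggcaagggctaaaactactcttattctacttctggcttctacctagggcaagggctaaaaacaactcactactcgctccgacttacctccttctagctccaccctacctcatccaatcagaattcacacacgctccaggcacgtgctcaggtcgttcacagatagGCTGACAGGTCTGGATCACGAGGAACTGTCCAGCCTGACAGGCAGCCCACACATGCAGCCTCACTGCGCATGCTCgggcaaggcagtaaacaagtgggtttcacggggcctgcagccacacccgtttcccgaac

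The letters of 5 motifs were looked up in these windows on both strands. The GATA-factor motif AGATAAG was in the Gm31851 window, once inside the capitals, and in 3.04% of all windows. The octamer ATGCAAAT, bound by POU factors such as Pou5f1, was in the Gm35255 window inside the capitals, and in 1.75% of all windows. The forkhead core TGTTTAC was in the Gm5091 window outside the capitals, and in 3.67% of all windows. Over the 36 overlapped windows the forkhead core was in 3, the octamer in 3 (of which 2 are overlapping windows of Gm31415 over 1 member), GATA in 1, CTTTGAT (TCF/LEF) in 3 and AGGTGTGA (T-box) in none, against 3.76% of all windows for CTTTGAT and 1.28% for AGGTGTGA. These matches describe letters only, and draw nothing about binding. Median GC content was 52.8% in the overlapped windows and 53.0% in all windows.

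Several properties of the libraries touch every result on the members. Lists held 14519 to 59006 summits, the shortest being control day 5 replicate 1, and the files carry no read counts, so depth is unknown and a shorter list cannot be told apart from a shallower library. That library also stood apart at genes: 3 of 12 genes known in differentiating embryoid bodies had a summit within 1 kb of their outer ends in it, against 9 in the other day 5 control library and 10 in each of the other 6. Pdgfra and Gata4 had none in any library. Of 10 fibroblast (feeder) genes, 4 had such a summit in that library and 6 or 7 in the others, and Col3a1, Postn and Lum had none anywhere. The part of feeder cells in the results was not tested. The 2 lists labelled KO day 5 hold peak names with D7 in them, so genotype and a difference in day cannot be told apart in any day 5 comparison. Foxk1 itself had 1 summit within 1 kb of its ends in 7 libraries and none in control day 5 replicate 1. As the deleted part is not given, this checks nothing about the knockout.

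At day 3 members took a like share of the summits in both genotypes, and at day 5 they took a much smaller share in the controls than in the KO. Summits in members made up 11.4% and 11.8% of the KO day 3 lists and 11.3% and 11.0% of the control day 3 lists. At day 5 they made up 9.99% and 10.1% of the KO lists but 2.80% and 3.79% of the control lists. Both control day 5 libraries were thus below all 6 others, while the day 3 libraries lay close together. In numbers, 4833 and 4257 member summits were present in KO day 5, against 406 and 1290 in control day 5, and 5970 to 6711 at day 3. In bulk chromatin, fewer cells with an open site and less opening per cell cannot be told apart.

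Group means were 11.6% ± 0.273 (SD, n = 2) in KO day 3, 11.2% ± 0.172 in control day 3, 10.0% ± 0.0829 in KO day 5 and 3.29% ± 0.702 in control day 5. From day 3 to day 5 the mean share went to 0.869 times its value in the KO and to 0.295 times in the controls. Within days the KO exceeded the controls by 3.58 percentage points on average, 0.409 points at day 3 and 6.75 points at day 5. A two-sided exact permutation of genotype within days gave p = 0.0556 for the mean difference, which is the smallest p that 36 arrangements allow. Day 5 minus day 3, within genotypes, was -4.69 points, with the same smallest exact p = 0.0556. The difference of the genotype effect between days was 6.34 points, with an exact permutation p = 0.333. Both KO libraries were above both controls on each day, and with that order this permutation cannot give less than 0.333. It therefore cannot decide whether the genotype effect differed between days. No difference in share therefore passed 0.05, and a single day, with 2 libraries in each arm, cannot reach a p below 0.333. When desert regions seen in 1 library were counted as well, the day 3 genotypes overlapped (13.4% and 12.8% in KO, 13.1% and 12.8% in controls), the day 5 shares were 11.0% and 10.7% against 3.22% and 5.71%, and the exact p was 0.167. In full lists the genotype p thus depended on the 2-library minimum, which was applied to the same 8 libraries that were tested.

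**Figure D1:**
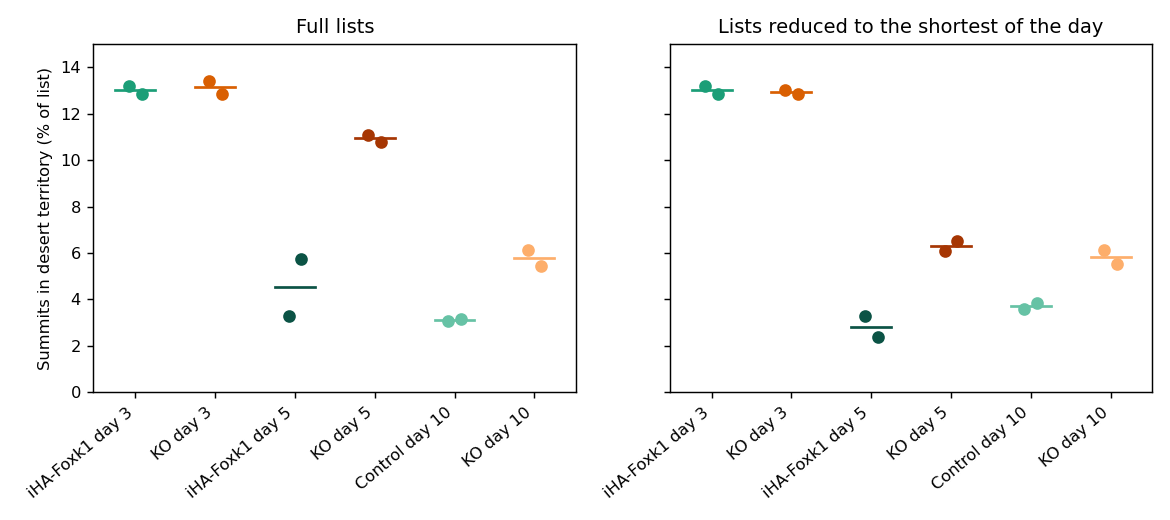
Share of each library's summits (y axis, % of the list) that fell in desert territory, members or not, for the 6 groups (x axis), with full lists (left) and with each list reduced to its highest-scoring summits, as many as the shortest list of its day holds (right). Points are libraries and lines are means of 2. Control day 5 libraries stand at 3.28% and 5.76% on the left and 3.28% and 2.38% on the right, under both KO day 5 libraries in both panels, whereas the day 3 genotypes overlap.

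The day 5 gap was also present in lists of equal length. With every list reduced to its 14519 highest-scoring summits, members held 10.8% and 10.7% in KO day 3, 9.35% and 9.39% in control day 3, 6.03% and 6.39% in KO day 5, and 2.80% and 2.03% in control day 5. Both KO libraries then stood above both controls on each day, and the mean difference was 2.60 points (exact permutation p = 0.0556, the smallest possible). Members were also counted against intergenic summits 1 to 100 kb from a gene. There were 45.2 and 45.7 member summits per 100 such summits in KO day 3, 45.6 and 44.0 in control day 3, 41.3 and 42.6 in KO day 5, and 20.7 and 21.3 in control day 5. On this ratio the mean genotype difference was 10.8 per 100 (exact permutation p = 0.111) in full lists and 23.2 per 100 (exact p = 0.0556) in lists of equal length. In full lists gene ends moved the other way. Summits within 1 kb of a protein-coding gene end made up 59.0% and 36.4% of the control day 5 lists and 23.4% to 30.6% of the other 6. These control lists, with 14519 and 34040 summits, were the shortest, and gene-end shares in lists of equal length were not computed.

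The strongest and the weaker summits of a list differed in how often they lay in deserts. Ranks were taken by score, list by list. Among the 500 best summits, members held 8.2% and 9.4% in KO day 3 and 8.4% and 8.8% in control day 3. At day 5 they held 9.0% and 9.4% of these in the KO and 4.0% and 7.2% in the controls. The share was lower among the 5000 best. Among the 5000 best summits, members held 6.64% and 6.42% in KO day 3, 5.44% and 5.54% in control day 3, 1.22% and 1.42% in KO day 5, and 1.26% and 1.32% in control day 5. At that depth the day 5 genotypes overlapped. Among the 10000 best they no longer did, with 2.75% and 3.47% in KO day 5 against 1.91% and 1.31% in control day 5. After rank 10000 and up to rank 14500 members held 13.3% and 12.8% of summits in KO day 5 and 4.78% and 3.64% in control day 5, and from there to rank 20000 they held 14.8% and 14.3% in KO day 5 and 4.07% in control day 5 replicate 2. At day 3 the KO shares were above the control shares down to rank 14500 (13.0% and 13.6% against 12.5% and 12.5% after rank 10000), and from there to rank 20000 the genotypes overlapped (13.2% and 12.8% against 12.7% and 13.4%).

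**Figure D2:**
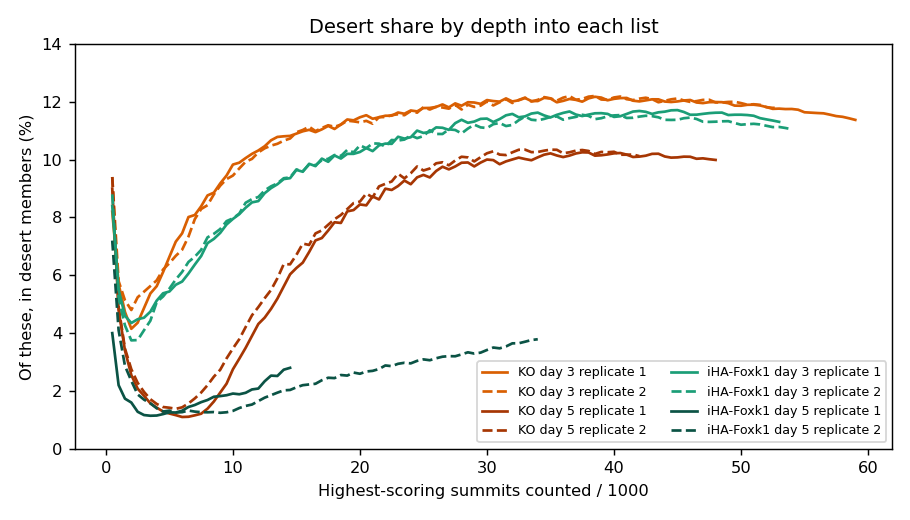
Share of summits that fell in members (y axis, %) among the N highest-scoring summits of each list (x axis, N divided by 1000), 1 line per library of days 3 and 5. At 500 summits the day 5 lines stand at 9.0% and 9.4% in the KO and 4.0% and 7.2% in the controls. The 4 day 5 lines run together at 5000 summits (1.22% to 1.42%) and part after that, KO day 5 reaching 8.45% and 8.55% at 20000 summits where control day 5 replicate 2 stands at 2.60%; control day 5 replicate 1 ends at 14519.

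Very few members were open in every library, and many were open everywhere except in control day 5. Only 133 members (1.56%) had a summit in all 8 libraries, against 15.5% of all regions found in at least 2. The most frequent pattern, a summit in both KO libraries of each day and both control libraries of day 3 but in neither control library of day 5, took in 2168 members (25.4%), against 12.1% of all regions. A summit in at least 1 control day 5 library was found for 1357 members (15.9%; 42.1% of all regions), and in at least 1 KO day 5 library for 5390 (63.0%; 72.1% of all regions). Members were thus rarer than other regions in both day 5 genotypes, and the control showed the wider distance. Nearer to genes the same shares were 30.9% and 66.8%, in the 20102 intergenic regions 1 to 100 kb from a gene. Of these regions, 13.9% had the pattern that misses only control day 5, and 5.27% had a summit in all 8 libraries.

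Members found at day 3 were followed to day 5. Of 5758 members in both KO day 3 libraries (67.3% of the members; background 66.7%), 4243 (73.7%) had a summit in at least 1 KO day 5 library. Of 5137 members in both control day 3 libraries (60.1%; background 62.1%), 814 (15.8%) had one in at least 1 control day 5 library. For intergenic regions 1 to 100 kb from a gene these shares were 75.7% and 34.2%, and for all regions 81.2% and 50.4%. List lengths were then made equal, using only the libraries with at least 34040 summits at day 5, and the 3900 members in all 4 day 3 libraries. KO day 5 replicate 1 held 66.1% of them, replicate 2 held 68.1%, and control day 5 replicate 2 held 16.5%. For the near intergenic regions the matched shares were 65.2%, 65.3% and 38.8%. With lists of 14519 summits, 20.5% and 21.5% of the 3900 were found again in KO day 5 and 4.69% and 4.13% in control day 5. The control values lay below the KO values at both lengths; with 1 control library at the longer length there is no test, and at the shorter length 2 against 2 allows no exact p under 0.333.

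Each member was then called by its presence in both libraries of a group. At day 3, 1002 members (11.7%) were KO-only (both KO libraries had a summit there and the controls had none), against a background of 8.38% of all regions, and 730 (8.54%) were control-only, against 6.83%. At day 5, 2932 members (34.3%) were KO-only, against 19.6% of all regions, and 78 (0.912%) were control-only, against 1.01%. Of the intergenic regions 1 to 100 kb from a gene, 10.2% were KO-only and 8.17% control-only at day 3. At day 5 these were 22.9% and 1.27%. The day 3 shares of members were thus nearer to those of these regions than to those of all regions. The order of the day 3 counts turned when either KO day 3 library was left out: without KO replicate 1 there were 570 KO-only and 1061 control-only members, and without KO replicate 2 there were 648 and 918. The order held without either control day 3 library: without control replicate 1 there were 1459 and 217, and without control replicate 2 there were 1416 and 235. The rule itself pushes these counts. The 542 members seen only in both KO day 3 libraries lose the 2-library minimum when 1 of these is left out. The same holds for the 600 seen only in both control day 3 libraries. Neither the turn nor the held order therefore measures how stable the counts are. The KO-only share at day 5 was above its background and the control-only share was near it, so the latter is no result about deserts. Without control day 5 replicate 1 the day 5 counts became 2960 KO-only and 200 control-only. With all lists at 14519 summits, there were 2000 members, and 527 (26.4%; 8.81% of all regions) were KO-only and 112 (5.60%; 5.61% of all regions) control-only at day 5. In those shortened lists 339 members (17.0%; 6.20% of all regions) were KO-only and 230 (11.5%; 6.48%) control-only at day 3. KO-only at both days were 194 members (2.27%; background 1.42%) and control-only at both days were 5 (0.0585%; background 0.102%).

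Between days, 581 members (6.79%; background 4.52%) had a summit in all 4 day 3 libraries and no day 5 library, and 17 (0.199%; background 0.236%) had the reverse pattern. Within the KO, 1515 members (17.7%; background 12.5%) were found in both day 3 and neither day 5 library, and 273 (3.19%; background 3.89%) the other way round. Within the controls the counts were 4323 (50.5%; background 30.7%) and 120 (1.40%; background 1.62%). In full lists gain at day 5 was near its background in each of these counts, and loss was above it. Loss in the intergenic regions 1 to 100 kb from a gene lay between members and background. It was 5.49% over both genotypes, 14.7% within the KO and 36.3% within the controls. In lists of 14519 summits gain was below its background, at 0.250% of members against 2.40% of all regions over both genotypes, 1.85% against 7.33% within the KO and 5.60% against 10.3% within the controls. Loss in those lists was above its background, at 7.5% against 2.82%, 21.6% against 7.57% and 46.2% against 17.1%. Replicates shared 79.6% of the members found in either library in KO day 3, 74.9% in control day 3, 68.6% in KO day 5 and 25.0% in control day 5. Control day 5 also had the lowest shared percentage over all regions, at 44.5%. Lists of unequal length limit this percentage, and control day 5 had 14519 and 34040 summits. In that group 339 members were in both lists, against 406 in replicate 1 and 1290 in replicate 2.

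The members call for examples with their rank in every library, where a low rank percent is a strong summit of its own list. Lists differ in length, so equal percents of different lists are not equal ranks and are not compared. The best-ranked KO-only member at day 3 outside the start of chromosome 9 lay at chr3:22730463-22730482 between Tbl1xr1, a co-repressor subunit, and Naaladl2. It ranked at 7.69% and 12.9% in KO day 3 and 10.4% and 8.68% in KO day 5, and had no summit in any control library. Adgrb1, an adhesion G-protein coupled receptor, had a pair of neighbouring members with opposite calls. The member at chr15:74187117-74187314 ranked at 5.43% and 4.09% in KO day 3 and 23.3% and 35.9% in KO day 5 and was absent from the controls, whereas the member at chr15:74187674 ranked at 13.7% and 4.76% in control day 3 and was in no other library. These neighbours were kept apart by the merging distance of 250 bp, and whether they are 1 open region with a shifted summit was not tested. Csmd3, a large membrane protein of the brain, flanks the best-ranked control-only member at day 3, at chr15:47354902-47354945, with ranks of 3.73% and 7.71%.

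Among KO-only members at day 5, several had been open in every day 3 library. The member at chr9:100074431-100074561 nearest Sox14, a neural SOXB factor, ranked at 1.67% and 1.91% in KO day 3, 4.20% and 4.18% in control day 3, and 13.1% and 11.1% in KO day 5. The member at chr11:112501941-112502044, 280 kb from Sox9, a regulator of cartilage and neural crest, ranked at 1.27% and 0.988% in KO day 3, 4.50% and 3.63% in control day 3, and 11.4% and 17.8% in KO day 5. Neither had a summit in control day 5. Nearest Cntnap5a, a neuronal surface protein, the member at chr1:114849816-114849914 followed the same course, from 0.707% and 0.527% in control day 3 to none in control day 5, with 20.4% and 15.0% in KO day 5.

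Control-only members at day 5 were few. The best-ranked, at chr3:123906123-123906161 between Ndst3, a heparan sulfate enzyme, and Tram1l1, ranked at 9.54% and 34.1% in the control day 5 libraries and was in no other library. Others lay nearest Slit2, an axon guidance ligand, at 35.7% and 23.9%, and nearest Mtx2, the neighbour of the Hoxd cluster, at 34.5% and 27.9%. Members in all 4 day 5 libraries and no day 3 library included chr8:56924906-56924950 between Fbxo8 and Hand2, a transcription factor of heart and limb. It ranked at 77.6% and 83.2% in KO day 5 and at 29.4% and 14.5% in control day 5. Another lay 444 kb from Sox11, at 40.2% and 32.8% in KO and 84.4% and 26.6% in control. Day 3-only members were led by chrX:156064421-156064426 beside Ptchd1, at 11.3% and 11.3% in KO and 7.47% and 7.11% in control, and by a member beside Lrfn5, a synaptic adhesion protein, at 12.3% and 11.6% in KO and 7.27% and 8.49% in control.

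The best-ranked members in all 8 libraries were at the very top of each list. The first, chr2:98666965 between Lrrc4c and Iftap, had its summit at the same base in every library, ranked at 0.00169% to 0.00689%, and was in all 4 day 10 libraries too. Others lay at chr12:97061554 between Flrt2 and Galc, at chr14:19417300 and chr14:19415882-19415890 beside Gm2244, and at the first megabases of chromosome 9 at chr9:3024478, the side of Alkbh8. Of the 133 members in all 8 libraries, 19 had a mean rank in the best 1%. No list of known artefact regions was applied, and whether these 19 are such regions was not tested. Without them the genotype difference in share was 3.61 points, against 3.58 with them. The best-ranked KO-only member on both days, chr9:3004220, belongs to the same stretch of chromosome 9 and was in all 4 day 10 libraries, those labelled Control included.

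Members became sparser and, in control day 5, rarer with distance from genes. Their median distance to the nearest gene end was 267 kb, the longest was 2.25 Mb, and 659 lay over 1000 kb away. There were 15.9 members per Mb of desert territory at 100 to 200 kb, 13.3 at 200 to 500 kb, 10.2 at 500 to 1000 kb and 9.78 beyond. A control day 5 summit was found for 18.7%, 15.6%, 12.4% and 11.7% of the members in these bins, in that order. A KO day 5 summit was found for 63.5%, 63.1%, 61.4% and 64.3%, with no such order. The shares are descriptions of these libraries, and no test of the trend was made. In the first 1 kb beyond the limit of 100 kb, 12.8% of 39 members had a control day 5 summit, and in the last 1 kb before it 31.1% of 61 regions did. For KO day 5 these were 56.4% and 65.6%. The median span between the outer summits of a member was 112 bp (118 bp over all regions), and 25.0% of members had another member within 10 kb.

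**Figure D3:**
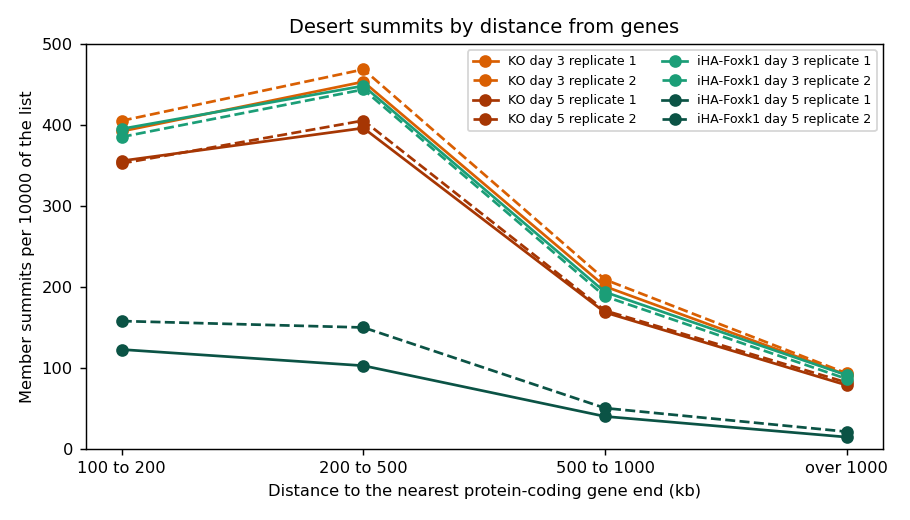
Member summits per 10000 summits of the list (y axis) by distance of the member from the nearest protein-coding gene end in kb (x axis, 4 bins of unequal width), 1 line per library, dashed for replicate 2. In the bin of 200 to 500 kb the 6 other libraries stand between 396 and 469 and the control day 5 libraries at 103 and 150, and the control day 5 libraries are the lowest in every bin.

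Deserts were counted as gaps between neighbouring protein-coding genes that hold territory more than 100 kb from both. There were 1491 such gaps with 651 Mb of territory and 13.0 members per Mb, and 1174 (78.7%) had at least 1 member. The 301 gaps with at least 10 members held 5316 of the members. The 20 richest gaps held 798 members (9.33%) on 9.67% of the territory, so they were large and not dense: their density was 12.7 per Mb, near that of all gaps. By chromosome, density ran from 8.19 per Mb on X to 16.6 on chromosome 2 and 16.5 on chromosome 10.

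Genes of cell adhesion in the nervous system flanked many of the richest deserts. The gap between the protocadherins Pcdh20 and Pcdh9, which mediate contacts between neurons, had the most members, 51 in 4.03 Mb of territory on chromosome 14. Of these, 44 and 41 had a summit in KO day 3, 38 and 37 in control day 3, 28 and 25 in KO day 5, and 1 and 4 in control day 5. Between Lrrc4c, a synaptic ligand, and Iftap on chromosome 2 there were 47 members, of which 29 and 29 were in KO day 5 and 2 and 6 in control day 5. Between Hace1, a ubiquitin ligase, and Grik2, a glutamate receptor, there were 45 on chromosome 10, 28 and 25 in KO day 5 against 0 and 5 in control day 5. Both control day 5 libraries were below both KO day 5 libraries in all 3, in counts and per 10000 summits of the list.

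On chromosome 1, 45 members each lay between Cntnap5b and Cdh20 and between Dsel and Cntnap5a. Of these genes, Cntnap5a and Cntnap5b encode neurexin-like proteins and Cdh20 a cadherin. Next came Pcdh7 to G6pd2 with 44 members, then Nr2f1 to Arrdc3, Cdh2 to Dsc3 and Got2 to Cdh8 with 41 each, and Kcnt2 to Cdc73 with 40. Nr2f1 is a nuclear receptor of neural development, and at day 3 its gap had fewer members in the KO (24 and 21) than in the controls (34 and 31). The remaining gaps of the 20 were Olfm4 to Pcdh17 (39), Nmbr to Cited2 (38), Slc10a2 to Efnb2, 4931417E11Rik to Ctnna2 and D3Ertd751e to Pcdh10 (36 each), Snx16 to Ralyl, Cdh6 to Cdh9 and Igfbp7 to Adgrl3 (35 each), and Zeb2 to Acvr2a and Slitrk5 to Gpc5 (34 each). A gene from a list of 63 synaptic and neuronal adhesion genes flanked 10 of the 20. That list flanked 82 gaps with 1277 members, at 11.4 members per Mb against 13.0 over all gaps, so its gaps were large and not dense.

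The densest deserts were small and had other flanking genes, and none of the 10 was among the 20 richest. They held 120 members at 45.5 per Mb, each on at most 0.379 Mb of territory, against at least 2.28 Mb in the richest. The highest density, 83.2 per Mb, was between 9530057J20Rik and Gm15319 on chromosome 8, whose best-ranked member lay in the best 0.344% of every list and in all 4 day 10 libraries. Foxl1 to 1700018B08Rik (Foxl1 is a forkhead factor of gut mesenchyme) had 53.7 per Mb. Fermt1 to Bmp2 had 47.5, Aebp2 to Pde3a 47.5, Pgrmc2 to Jade1 43.2 and Jun to Fggy 40.4. Slc16a7 to Lrig3 had 37.3, Sp4 to Sp8 36.4 and Cyria to Mycn 35.7. In the Foxl1 gap 6 and 6 members were in KO day 3 and 2 and 3 in control day 3, with 7 and 6 in KO day 5 and 3 and 5 in control day 5, so both KO libraries were above both controls on each day in counts. Per 10000 summits of these unequal lists the day 5 order turned, to 1.45 and 1.42 in the KO against 2.07 and 1.47 in the controls.

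**Figure D4:**
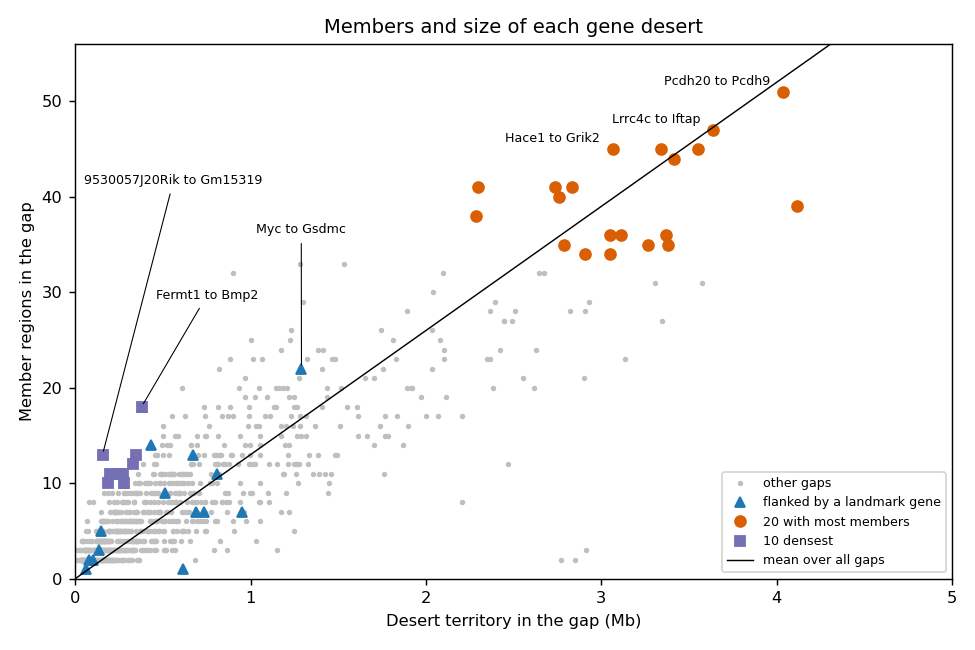
Members (y axis, count) against desert territory (x axis, Mb) for the 900 gaps with the most members and those with a landmark flanking gene. The line gives the mean over all gaps, 13.0 members per Mb; the 20 richest gaps (circles) lie around it at 2.28 Mb or more, the 10 densest (squares) lie far above it at 0.379 Mb or less, and the gaps flanked by landmark genes known for long-range control are triangles.

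Landmark genes, 11 developmental regulators known for long-range control, flanked 19 gaps with 132 members, at 15.8 per Mb. Myc, the growth regulator, had 22 members towards Gsdmc and 7 towards A1bg. In the Gsdmc-side gap 18 and 15 were in KO day 3, 12 and 13 in control day 3, 13 and 11 in KO day 5 and 1 and 2 in control day 5. Pax1 to Foxa2, on the side of the endoderm and floor plate factor Foxa2, had 14 members, of which 6 and 2 were in KO day 5 and none in control day 5. The gap from Gm11677 to Sox9 had 11 members, Ddhd1 to Bmp4 had 9, Bmp2 to Hao1 and Sall1 to Tox3 had 7 each, and Sox9 to Slc39a11 had 5. Dnajc19 to Sox2, Cyld to Sall1 and Otx2 to Exoc5 had none. Eomes, the T-box factor of early mesoderm, had 2, and Med13l to Tbx3 had 1.

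Sox2 keeps stem cells pluripotent and is known to be driven in mouse stem cells by enhancers downstream of the gene. Its downstream desert, towards Atp11b, had 13 members, with 12 and 11 in KO day 3, 8 and 10 in control day 3, 7 and 8 in KO day 5, and 3 and 2 in control day 5. The member nearest Sox2, at chr3:34757905-34758111 and 105 kb from it, ranked at 65.9% and 59.0% in KO day 3, 79.0% and 51.6% in control day 3 and 90.9% in KO day 5 replicate 2, and was absent from the other 3 day 5 libraries. The only member of the desert in all 8 libraries, at chr3:34795662-34795801, ranked at 30.4% and 34.0% in KO day 3, 40.1% and 41.2% in control day 3, 24.1% and 17.5% in KO day 5, and 75.9% and 40.9% in control day 5. Another, at chr3:35130754-35131037, was in the 6 libraries other than control day 5, at 11.2% and 15.1% in KO day 3 and 34.5% and 47.8% in KO day 5.

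Bmp2, a ligand that is known to induce heart mesoderm, flanks a desert where 44.4% of members had a control day 5 summit, against 11.8% in the median gap of at least 10 members. Fermt1 to Bmp2 had 18 members, with 10 and 10 in KO day 3, 13 and 13 in control day 3, 7 and 4 in KO day 5 and 5 and 7 in control day 5. The genotypes overlapped at day 5 in counts, while per 10000 summits both controls (3.44 and 2.06) were above both KO libraries (1.45 and 0.949). At day 3 both controls were above both KO libraries in counts. The member at chr2:133429868-133429920, in the Gm31851 window whose letters are given with the other windows, ranked at 74.0% in control day 3 replicate 1 and at 61.5% and 37.8% in control day 5. The strongest member of the desert, at chr2:133261628-133261751, ranked at 22.5% and 28.9% in KO day 3, 29.6% and 26.8% in control day 3 and 42.8% and 24.7% in KO day 5, and was absent from control day 5. On the other side of the gene, the 7 members of Bmp2 to Hao1 had no control day 5 summit.

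Over the 301 gaps with at least 10 members, the day 5 pattern of the full lists was spread over many loci. Counted per 10000 summits of the list, both control day 5 libraries were below both KO day 5 libraries in 268 gaps (89.0%), above both in 6, and overlapping in 27. The member share changed with depth into a list, so these rates do not make lists of unequal length alike. Counts per gap in lists of equal length were not computed. The 6 were Adgrl2 to Adgrl4, Fermt1 to Bmp2, Cdh11 to Cdh5, Tafa2 to Slc16a7, Col11a1 to Olfm3 and Foxl1 to 1700018B08Rik, named after their values were seen. Some of these rates rest on few members in lists of unequal length. In Tafa2 to Slc16a7 they were 0.689 and 0.588 in the controls against 0.413 and 0.475 in the KO. At day 3 the controls were below in 104 gaps and above in 49. In the median gap 11.8% of members had a control day 5 summit, and in 39 gaps none did. The gaps with the highest such share, chosen after their values were seen, were 9530057J20Rik to Gm15319 and Mn1 to Cryba4 (53.8% each), Cdh11 to Cdh5 (52.9%), Cyria to Mycn, Foxl1 to 1700018B08Rik and Sox11 to Dcdc2c (50.0% each), Fermt1 to Bmp2 (44.4%) and Irx1 to Irx2 (41.7%). Mycn, Sox11, Irx1 and Irx2 encode developmental transcription factors, and Cdh5 is the cadherin of endothelium. In the Cdh11 to Cdh5 gap 11 and 7 of 17 members were in KO day 5 and 5 and 9 in control day 5, which overlap. Per 10000 summits the controls, at 3.44 and 2.64, were above the KO, at 2.27 and 1.66.

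**Figure D5:**
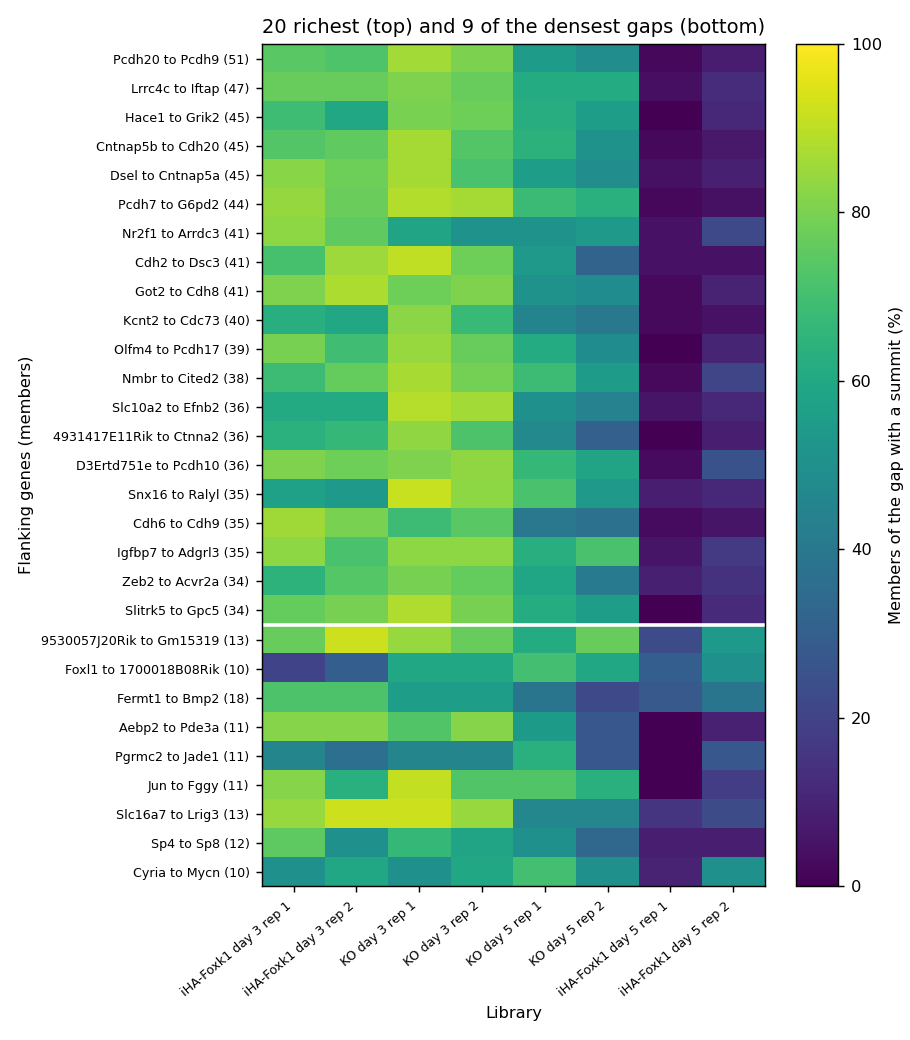
Share of the members of a gap that had a summit (colour, %) in each library (x axis), for the 20 richest gaps (top, by number of members in brackets) and 9 of the 10 densest (under the white line). Both control day 5 columns are dark in the richest gaps, where 0 to 9 members had a summit, and lighter in some of the densest, such as Fermt1 to Bmp2 with 5 and 7 of 18.

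Gene lists described the flanks, with members of a gap counted for a list when 1 of its genes flanked the gap. Regulators of cardiac progenitors flanked 24 gaps with 184 members (18.9 per Mb), endoderm regulators 7 gaps with 53 (24.5 per Mb), and neural and neural crest regulators 38 gaps with 301 (14.2 per Mb). Pluripotency genes flanked 15 gaps with 93 members (13.5 per Mb), primitive streak and nascent mesoderm genes 7 with 9 (17.6 per Mb), epiblast genes 8 with 34 (18.5 per Mb), forkhead genes 16 with 76 (14.9 per Mb), and Wnt, Fgf, Bmp and Nodal family ligands 17 with 86 (17.4 per Mb). None of the 15 housekeeping genes flanked a gap. A control day 5 summit was found for 15.2% of the members beside cardiac genes, 15.1% beside endoderm genes and 18.6% beside neural genes. It was found for 22.6% beside pluripotency genes and 12.2% beside adhesion genes, against 15.9% over all members. At day 3, of the 76 members beside forkhead genes 18.4% were KO-only and 6.58% control-only. Of the 53 beside endoderm genes these were 5.66% and 17.0%, against 11.7% and 8.54% over all members. The other lists lay between 8.00% and 12.5% for KO-only members. Feeder fibroblast genes flanked 7 gaps with 25 members (21.5 per Mb), of which 28.0% had a control day 5 summit, and embryoid body markers flanked 6 gaps with 20 members (12.3 per Mb), of which 30.0% had one. Gaps are shared between lists, and these values are counts with no test.

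Day 10 libraries, Foxk1 KO and Control with 2 each, took no part in choosing the members. Their lists were short, with 10548 and 7764 summits in Control and 4028 and 4755 in the KO, and their peak names lack the duplicate-removal tag of the earlier days, so day and processing cannot be told apart. A day 10 summit within 250 bp was found for 2.05% and 1.63% of members in Control and 1.59% and 1.67% in the KO, against 13.0%, 9.57%, 4.50% and 5.47% of all regions. In all, 245 members (2.86%) had one in at least 1 library, against 14.1% of all regions. Of the 133 members in all 8 libraries 35 (26.3%) did, and of the 2932 KO-only members of day 5 there were 54 (1.84%). None of the 581 day 3-only, the 17 day 5-only or the 78 control-only day 5 members did. The shares over all regions of the same calls were not computed, so these counts are not compared between calls. Summits anywhere in desert territory made up 6.13% and 5.43% of the KO lists and 3.07% and 3.17% of the Control lists at day 10, so both KO libraries were above both Controls.

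A test over all 12 libraries was added after these values had been seen. Its controls were the iHA-Foxk1 libraries of days 3 and 5 and the libraries labelled Control of day 10. Desert summits of any kind exceeded the controls by 3.06 percentage points in the KO, with KO libraries above both controls of their day in 5 of 6 cases (two-sided exact permutation within days, p = 0.0278, adjusted over 3 list lengths 0.0370). With every list reduced to 4028 summits the difference was 0.981 points and 6 of 6 KO libraries were above (exact p = 0.00926, the smallest of 216 arrangements, adjusted 0.0278). The group means were then 5.85% ± 0.123 (SD, n = 2) against 5.23% ± 0.0527 at day 3, 1.56% ± 0.105 against 1.38% ± 0.0878 at day 5 and 5.83% ± 0.421 against 3.70% ± 0.176 at day 10. At day 5 these were 60 and 66 desert summits in the KO against 53 and 58 in the controls. The test over 12 libraries was not repeated without the 19 members of best mean rank. With each list reduced to the shortest of its day the difference was 1.84 points with 4 of 6 above (exact permutation p = 0.0370, adjusted 0.0370). Without day 5 the difference in full lists was 1.38 points (exact p = 0.167). Adjusting over list lengths does not correct for having seen the values first. These p-values are therefore no independent evidence of a genotype difference.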

How the data were processed

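The authors' tools were Bowtie2 2.2.4 and MACS2, on the mm10 build, per the submitters' processing notes. The deposited files hold 1 list of 1-base summits per library, each with a deposited −log10 score of a p-value or q-value (which of the pair was not stated), and no read counts or widths. Lowest scores were 1.30 to 1.33 at days 3 and 5. Members and gene lists were chosen with earlier results of these data known.

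Genes came from a RefSeq table of GRCm38.p6 (21631 protein-coding and 49554 genes of any type on chromosomes 1 to 19 and X). Named are the flanking genes of the 20 richest and 10 densest gaps (at least 10 members) and of landmark loci, the 5 best-ranked members of each call, and the best-ranked in all 8 libraries. Genotypes (within days) and days (within genotypes) were compared on library shares by exact two-sided permutation. Libraries with the same replicate number did not deviate together (correlations of 3.35e-06 at day 3 and -0.0288 at day 5). Scripts were tested on simulated data. 1 of the densest gaps is not reported here. Python 3.11.15, pandas 2.3.3, numpy 2.4.6, scipy 1.17.1 and matplotlib 3.10.9 were used. The alternatives tried were other merging and gene distances, library minima, score minima, gene bodies, list lengths and leaving out each library.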

Additional observations from a re-analysis of the deposited data

How the results depend on the processing

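Of 174 recomputed values, 146 were counts within 1.5 times the main value or differences that kept their direction and side of 0.05. No difference in share changed its direction. The tests over days 3 and 5 could not pass 0.05 in any setting, so their side of it was fixed in advance. Counts were compared by size only, so the turned order of the day 3 counts was not scored. Among the 146 values the difference over 12 libraries became smaller in shorter lists. It was 0.981 points in lists of 4028 summits and 1.84 points in lists as short as the shortest of the day. In full lists it was 3.06 points. At 200 kb from genes there were 5514 members, 659 KO-only and 461 control-only at day 3, 45 control-only at day 5 and 9 day 5-only. Taking 1 library as enough gave 13710 members, and asking for 3 gave 460 KO-only and 130 control-only members at day 3 and 21 control-only at day 5. Lists of 14519 summits gave 2000 members, 339 KO-only and 230 control-only at day 3, 527 KO-only at day 5, 150 day 3-only and 5 day 5-only. Day 5-only members were 9 with merging at 100 bp and 32 at 50 kb from genes. The construction of these settings (fewer or more regions or summits) changes the counts.

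Leaving out 1 library at a time moved members between 7557 and 8479, KO minus control between 3.07 and 4.09 points (exact p from 0.0556 to 0.333), day 5 minus day 3 between -5.16 and -4.01 points, KO-only members between 570 and 1459 at day 3 and 2922 and 3708 at day 5, and control-only members between 217 and 1061 at day 3 (where the order of the genotypes turned without either KO day 3 library) and 41 and 200 at day 5. Day 3-only members ranged from 588 to 863, day 5-only members from 17 to 63, and the difference over 12 libraries from 2.65 to 3.47 points. The highest control-only and day 5-only counts at day 5, 200 and 63, were those without control day 5 replicate 1. Over 12 libraries the difference was 1.38 points without day 5 (exact p = 0.167).

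Replicate numbers share only a number. With a replicate block the differences were 3.58 and -4.69 points (exact p = 0.125 each) over 8 libraries and 3.06 points over 12 (exact p = 0.0625). Summit lists carry no counts, so what read depth would allow is unknown, and a region without a summit is one below the peak caller's limit, and is not shown to be closed.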
